A study of Mus musculus with 12 samples.

Results

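The genes described here encode osteocrin (Ostn), the natriuretic peptides (Nppa, Nppb and Nppc), their receptors (Npr1, Npr2 and Npr3) and enzymes that process secreted peptides (Corin, Furin and Pam). These 10 genes, of 51912 gene identifiers in the table, were chosen by name as the members of this peptide system. The choice was made knowing that Ostn differed between LCHADD and wild-type (WT) hearts, so values of the 10 genes in LCHADD against WT are given as a description, with no p-value. RNA from fresh heart ventricles of mice was sequenced in 12 libraries: 3 of WT females, 3 of WT males, 3 of LCHADD females and 3 of LCHADD males. LCHADD, long-chain 3-hydroxyacyl-CoA dehydrogenase deficiency, impairs the breakdown of long-chain fatty acids in mitochondria. No group was treated, per the labels, which give no age, strain or way in which the gene was altered. They do not say that the 3 libraries of a group came from separate animals, so the tests measure the spread between these samples, which may be technical.

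ANP, the product of Nppa, and BNP, the product of Nppb, are hormones that heart muscle cells release when the wall is stretched. They act on NPR-A (Npr1), and CNP (Nppc) acts on NPR-B (Npr2). Both receptors are guanylyl cyclases that make cyclic GMP, which relaxes vessels and restrains growth of heart muscle and fibroblasts. NPR-C (Npr3) has no cyclase domain and removes the peptides from the circulation. Osteocrin, also called musclin, is a secreted peptide of bone and muscle that resembles the natriuretic peptides, binds NPR-C and can thereby spare them from removal.

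Nppa and Nppb lie next to each other on the same strand of chromosome 4. Their promoters are shown because factors that bind them in heart muscle are among the genes measured. Each sequence is the 250 bases before the start site in RefSeq, on build GRCm38.p6 and the plus strand, at chr4:148000472-148000721 for Nppa and chr4:147985650-147985899 for Nppb. Capitals mark letters searched on both strands: GATAA for GATA transcription factors, AAGTG for the cardiac homeobox factor NKX2-5, CATTCC for the TEAD family of factors, and TATAAA for the core promoter box.
Nppa: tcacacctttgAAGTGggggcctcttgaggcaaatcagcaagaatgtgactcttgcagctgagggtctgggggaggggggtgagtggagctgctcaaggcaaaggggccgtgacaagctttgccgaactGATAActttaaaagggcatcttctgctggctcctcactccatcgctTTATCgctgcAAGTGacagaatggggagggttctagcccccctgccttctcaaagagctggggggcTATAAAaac
Nppb: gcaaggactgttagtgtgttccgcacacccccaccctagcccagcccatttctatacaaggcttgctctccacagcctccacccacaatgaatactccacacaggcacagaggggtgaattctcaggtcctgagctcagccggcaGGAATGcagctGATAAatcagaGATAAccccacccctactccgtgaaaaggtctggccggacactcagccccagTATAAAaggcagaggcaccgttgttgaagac
GATAA was found 121 and 75 bases before the start of Nppa, and 94 and 83 bases before that of Nppb. Only the Nppa window held AAGTG, at 239 and 65 bases before the start. Only the Nppb window held CATTCC, as its reverse complement at 105 bases. Of 32851 RefSeq promoters of this length, 22.6% held GATAA, 40.7% AAGTG, 12.6% CATTCC and 12.4% TATAAA, and no match is shown to be a binding site. Among the other 8 members, promoter sequences were matched for 7.

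Levels below are normalised reads: read counts divided by 1 size factor per library. Depth was 15.6 to 23.2 M reads (M, mega) in WT and 16.7 to 19.0 M in LCHADD libraries. Mitochondrially encoded genes took 27.5 to 32.7% of reads in WT and 31.0 to 37.9% in LCHADD. Marker genes were set beside the tissue label. The 8 ventricular muscle markers summed to 425700 to 468500 normalised reads in WT and 272300 to 401300 in LCHADD. The atrial markers Myl7 and Sln had at most 5.47 and 1.14 in any library. Stard10 and Myl1 of the same atrial list had 302.9 to 449.3 and 237.9 to 459.9 over the 12 libraries. A value near 0 may not mean that a gene is silent, as given below for Galnt2, so Myl7 and Sln cannot decide the label. The 13 atrial markers summed to 1987 to 2234 in WT and 1091 to 1783 in LCHADD, a sum led by Kcnj3 (1058 to 1168 in WT and 188.4 to 654.9 in LCHADD). Differences are LCHADD minus WT on the scale log2(normalised reads + 1), with the standard error (SE) of a limma fit over the 13865 genes with at least 10 normalised reads in at least 3 libraries. The threshold for passing was an adjusted p (Benjamini-Hochberg, over all of these genes) under 0.05. Of the members, 9 were tested and Nppc was too low.

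Ostn was nearly silent in WT ventricle and readily counted in every LCHADD library. Ostn (ENSMUSG00000052276, chromosome 16) had 0.783, 0 and 5.99 normalised reads in WT females 1, 2 and 3, and 0, 2.47 and 0.865 in WT males. LCHADD females had 976.5, 1914 and 670.8, and LCHADD males had 351.2, 233.6 and 439.3. All 6 LCHADD libraries lay above all 6 WT libraries, and all 3 LCHADD females lay above all 3 LCHADD males. In raw reads, 8 in the WT females stood against 3499 in the LCHADD females, a ratio of 545 after scaling for size (exact Clopper-Pearson 95% interval 276 to 1262). In males 3 reads stood against 927, a ratio of 339 (interval 115.5 to 1645). The intervals cover counting error only. The log2 difference was 8.86 (SE 0.60) in females and 7.47 (SE 0.60) in males, and it depends on the added 1 because WT values are so low: with 5 added, it was 7.31 and 5.80.

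Markers of bone and skeletal muscle, the tissues best known for Ostn, were measured beside it. The 9 bone and cartilage markers summed to 5.20 to 13.3 normalised reads in WT and 5.69 to 22.3 in LCHADD. Bglap, the osteocalcin gene of bone, was at 0 in every library, and of the 9 markers 1 (Runx2) was tested and did not pass (log2 difference 0.54, SE 0.36, adjusted p = 0.256). The 14 skeletal muscle markers summed to 168.9 to 245.7 in WT and to 101.3 to 150 in LCHADD, with the fast myosin gene Myh4 at 0 throughout and Myh1 and Myh2 at no more than 2.47 and 3.17. Of the 5 skeletal markers tested, 2 fell in the mean of both sexes, Tnnt1 and Tnni2, and 3 did not pass. Tnni2 passed the filter only through the WT libraries. Its LCHADD libraries held 1 to 10 reads, so its call rests on values close to the added 1. Of all tested genes 20.6% fell. A value at or near 0 may not mean that a gene is silent, as given below for Galnt2. The part of these tissues in the Ostn reads was not tested.

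The neighbours of Ostn on chromosome 16 were looked at next. Gmnc, the nearest coding gene at lower coordinates, had 0 reads in all 12 libraries. Il1rap, beyond it, encodes a subunit of the interleukin-1 receptor and had 43.8 to 62.3 normalised reads in WT against 31.3 to 50.3 in LCHADD (log2 difference −0.33, SE 0.16, adjusted p = 0.104). Uts2b, which encodes a urotensin-related peptide and is the nearest coding gene at higher coordinates, had 0 reads in all 6 WT libraries and 4.55 to 15.5 normalised reads in the 6 LCHADD libraries. It was below the filter and was not tested, and 3 reads, the count that an observed 0 allows, correspond to 2.35 to 3.70 normalised reads in WT libraries. Ccdc50, the next coding gene, did not pass (log2 difference 0.12, SE 0.07, adjusted p = 0.187).

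**Figure D1:**
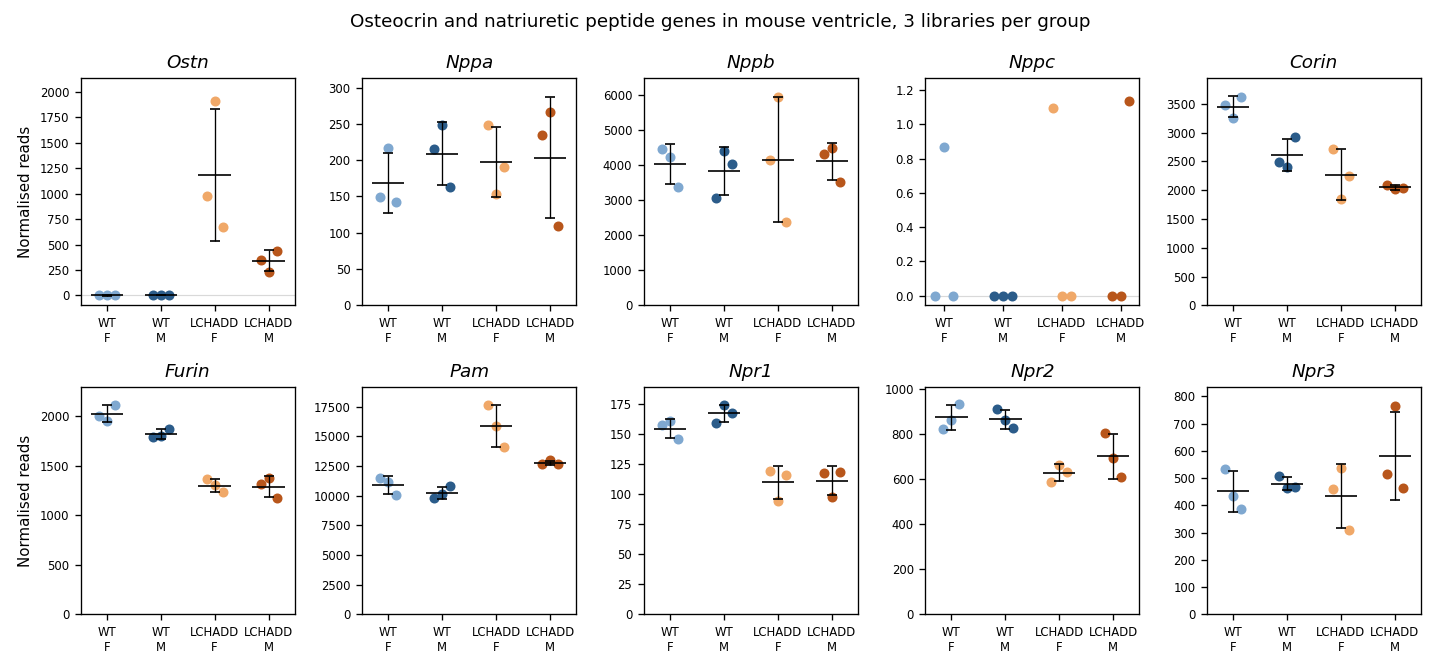
Normalised reads of the 10 genes in each library (vertical axes, linear, a separate scale per gene) for WT and LCHADD females (F) and males (M), with the mean and SD of 3 libraries drawn except for Nppc, which had 3 reads in all. Ostn was near 0 in the 6 WT libraries and 233.6 to 1914 in the 6 LCHADD libraries; Pam was higher and Furin, Npr1 and Npr2 were lower in all 6 LCHADD libraries than in any WT library.

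The transcripts of the cardiac hormones themselves did not separate the genotypes. Nppb (ENSMUSG00000029019) had 4463, 4242 and 3390 normalised reads in WT females and 3077, 4404 and 4039 in WT males. It had 4167, 5950 and 2376 in LCHADD females and 4319, 4499 and 3519 in LCHADD males. The LCHADD females held both the highest and the lowest of the 12 values, and the groups overlapped in both sexes. The log2 difference of Nppb was −0.04 (SE 0.24) in females, 0.11 (SE 0.24) in males and 0.03 (SE 0.17) in the mean of both sexes. In females it moved to −0.47 when WT female 3 and LCHADD female 2 were left out together.

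Nppa (ENSMUSG00000041616) had 148.7, 216.8 and 142.1 normalised reads in WT females and 215.1, 249.1 and 162.6 in WT males. It had 248.2, 153.4 and 191.2 in LCHADD females and 234.5, 266.8 and 109.2 in LCHADD males. The highest and the lowest value were both from LCHADD males, and the groups overlapped in both sexes. Its log2 difference was 0.22 (SE 0.29) in females, −0.12 (SE 0.29) in males and 0.05 (SE 0.20) in the mean. The level of Nppa is uncertain, since 532 of its 865 exon bases are shared with the antisense gene Gm13054 (0 to 3.47 normalised reads) and the use of strand in counting is not known. Ostn, Npr1, Npr2, Npr3, Corin and Furin also share 118 to 559 exon bases with genes on the opposite strand in the annotation.

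The ratio of the 2 hormone transcripts varied from library to library, and the uncertain level of Nppa given above applies to it. The ratio of Nppb to Nppa reads ran from 14.3 to 30.0 in WT and from 12.4 to 38.8 in LCHADD, with the LCHADD extremes in females 3 and 2. Nppc (ENSMUSG00000026241, chromosome 1), the gene of CNP, a peptide made largely by endothelium, gave 1 read in the 6 WT libraries and 2 in the 6 LCHADD libraries, so no fold is given. The 10 endothelial markers summed to 13870 to 15310 normalised reads in WT and 10980 to 12590 in LCHADD, with Pecam1 at 1588 or more in every library. A 0 in this table does not always mean that a gene is silent: Galnt2, which most cells express, was listed at 0 in all 12 libraries. The mural cell marker Tagln had at most 4.93 normalised reads, beside 448.6 or more for the mural cell marker Acta2. The same limit applies to other marker genes at or near 0.

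Compared per kilobase of exon, Nppb was the most abundant of the 10 transcripts in both genotypes, at 5039 ± 733 normalised reads per kilobase in WT and 5299 ± 1508 in LCHADD (SD, n = 6). Pam followed at 889 ± 56.4 in WT and 1203 ± 173 in LCHADD. Length here is all annotated exon bases of a gene, which can exceed those of 1 transcript, so the order depends in part on it. The place of Nppa is also uncertain, because of the antisense gene named above. In WT the order went on with Corin (561), Nppa (219), Furin (209), Npr2 (186), Npr3 (49.6), Npr1 (33.6), Ostn (1.18) and Nppc (0.139). Of these WT neighbours, the ranges of Nppa and Furin, of Furin and Npr2, and of Ostn and Nppc overlapped. In LCHADD, Ostn came after Pam at 537 ± 437 per kilobase, with a range of 164 to 1345 that overlapped those of Pam above it (1061 to 1485) and Corin below it (340.5 to 503.6). That place rested on the females, in which Ostn had 471.4 to 1345 per kilobase: in males it had 164.1 to 308.7, below every value of Corin (374.6 to 386.9) and overlapping Nppa (126.3 to 308.4). Nppa (232), Npr2 (143), Furin (141), Npr3 (54.2), Npr1 (23.1) and Nppc (0.357) came after Corin, and the ranges of Nppa and Npr2 and of Npr2 and Furin overlapped.

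Transcripts of the enzymes that cut the precursors were lower in LCHADD. Corin (ENSMUSG00000005220, chromosome 5) encodes a membrane protease of heart muscle cells that cuts pro-ANP into ANP. Its normalised reads were 3481, 3251 and 3616 in WT females and 2494, 2404 and 2927 in WT males, against 2720, 1839 and 2251 in LCHADD females and 2089, 2023 and 2030 in LCHADD males. Within each sex the genotypes did not overlap, while over both sexes LCHADD female 1 lay above WT males 1 and 2. Corin was 34.2% lower in LCHADD females (log2 difference −0.62, SE 0.11) and 21.5% lower in LCHADD males (−0.34, SE 0.11). The female value shrank to −0.37 with array quality weights, which count less consistent libraries less.

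Furin (ENSMUSG00000030530, chromosome 7) encodes a proprotein convertase of the secretory pathway that cuts pro-BNP, among many other precursors. It had 1996, 1952 and 2115 normalised reads in WT females and 1784, 1799 and 1870 in WT males. It had 1359, 1304 and 1229 in LCHADD females and 1315, 1373 and 1173 in LCHADD males, so that all 6 LCHADD libraries lay below all 6 WT libraries. The level was 35.8% lower in females (log2 difference −0.64, SE 0.08) and 29.2% lower in males (−0.50, SE 0.08). Furin had a narrow spread within groups, with SDs of 45.9 to 103 normalised reads.

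Pam (ENSMUSG00000026335, chromosome 1) was higher in LCHADD. It encodes peptidylglycine alpha-amidating monooxygenase, which amidates the ends of many peptide hormones and is a major membrane protein of atrial granules. Its normalised reads were 11490, 11140 and 10080 in WT females and 9810, 10120 and 10790 in WT males. They were 17660, 15860 and 14120 in LCHADD females and 12620, 12960 and 12650 in LCHADD males. The 2 genotypes did not overlap, and in LCHADD all 3 females lay above all 3 males. Pam was 1.46-fold higher in females (log2 difference 0.54, SE 0.08) and 1.24-fold higher in males (0.32, SE 0.08).

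Of 16 other proprotein convertases and granule proteins, 8 could be tested. In the mean of both sexes 1 rose, 2 fell and 5 did not pass, with a median log2 difference of −0.09 against −0.00193 over all tested genes. Of all tested genes 20.3% rose and 20.6% fell. Pcsk6, whose product PACE4 activates pro-corin, had 790 ± 71.5 normalised reads in WT and 394 ± 21.9 in LCHADD females, and fell from 832 ± 45.2 to 451 ± 26.0 in males (SD, n = 3; log2 difference of the mean −0.94, SE 0.06, limma adjusted p = 4.96e-08). Sort1, the sorting receptor sortilin, fell by 0.73 on the log2 scale (SE 0.11, adjusted p = 6.92e-05), and the convertase gene Pcsk4 rose at a low level, from 18.5 to 36.9 normalised reads in WT to 40.1 to 77.1 in LCHADD (adjusted p = 0.00127). Cpe, a carboxypeptidase of the granule, and Galnt1, an enzyme of O-glycosylation, did not pass (log2 differences −0.07 and −0.03, adjusted p = 0.362 and 0.70). The granule genes Chga and Scg2 had 0 reads in every library.

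Transcripts of both cyclase receptors were lower in LCHADD. Npr1 (ENSMUSG00000027931, chromosome 3) had 157.3, 160.4 and 145.5 normalised reads in WT females and 159.4, 173.9 and 167.8 in WT males. It had 119.2, 94.2 and 116.2 in LCHADD females and 117.8, 97.3 and 118.4 in LCHADD males. Every LCHADD library lay below every WT library. Npr1 was 28.9% lower in females (log2 difference −0.49, SE 0.14) and 33.5% lower in males (−0.59, SE 0.14).

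Npr2 (ENSMUSG00000028469, chromosome 4) had 824.8, 862.7 and 934.6 normalised reads in WT females and 911.4, 860.6 and 825.9 in WT males. It had 587.2, 664.1 and 633.8 in LCHADD females and 806.6, 692.6 and 607.7 in LCHADD males. The genotypes did not overlap, although LCHADD male 1 at 806.6 came close to the lowest WT value of 824.8. Npr2 was 28.1% lower in females (log2 difference −0.48, SE 0.10) and 18.9% lower in males (−0.31, SE 0.10).

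Npr3 (ENSMUSG00000022206, chromosome 15), the gene of the clearance receptor that osteocrin binds, had overlapping values. It had 534.5, 433.5 and 388.5 normalised reads in WT females and 508.0, 464.8 and 467.0 in WT males, against 460.4, 538.9 and 308.5 in LCHADD females and 516.9, 764.8 and 463.2 in LCHADD males. LCHADD libraries held both the highest value, male 2, and the lowest, female 3. The log2 difference was −0.08 (SE 0.20) in females and 0.24 (SE 0.20) in males.

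Set against the cyclase receptors within each library, Npr3 made up a larger part in most LCHADD libraries. The ratio of Npr3 to Npr1 reads was 2.67 to 3.40 in WT and 2.66 to 7.86 in LCHADD, where 5 of 6 libraries lay above the highest WT value and female 3 lay below the lowest. The ratio of Npr3 to Npr2 was 0.416 to 0.648 in WT and 0.487 to 1.10 in LCHADD, with overlap. These ratios are not corrected for length, which cancels between libraries. The ratio of Ostn to Npr3 reads was at most 0.0154 in WT, 2.12 to 3.55 in LCHADD females and 0.305 to 0.948 in LCHADD males.

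Markers of several cell types, chosen with earlier results of these data known, moved too. In the mean of both sexes 20.3% of all tested genes rose and 20.6% fell. Of 10 endothelial markers, 6 fell and 4 did not pass, with a median log2 difference of −0.24, and Tek, a vascular receptor kinase, fell by 0.65 on the log2 scale (SE 0.06, adjusted p = 1.35e-06). All 9 fibroblast markers fell, by a median of −0.46, and their sum was 24530 to 27060 normalised reads in WT and 13940 to 19400 in LCHADD. Of 8 mural cell markers tested, 7 fell and Acta2 did not pass, with sums of 18360 to 20680 and 12980 to 19180. Of 7 endocardial markers tested, 4 fell and 3 did not pass, with sums of 2620 to 3201 and 1898 to 3119. All 5 erythroid markers tested fell, from sums of 6973 to 12560 to sums of 1915 to 4489, and of the 8 ventricular muscle markers 5 fell and 3 did not pass. In males alone, 4 of 10 endothelial, 4 of 9 fibroblast, 4 of 8 mural and 0 of 7 endocardial markers fell, the last against 4 in females. The 5 erythroid markers and 2 of the 8 ventricular muscle markers also fell in males, where 7.77% of all tested genes fell. In bulk tissue, fewer cells of a type and less RNA per cell cannot be told apart, and the part of these shifts in the levels of Npr1, Npr2, Corin and Furin was not tested.

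Over the members, 2 of 9 passed as higher and 4 of 9 as lower in the mean of both sexes, where 40.8% of all tested genes passed, 20.3% higher and 20.6% lower. In females the members' counts were also 2 higher and 4 lower, where 33.8% of all genes passed, 16.7% higher and 17.2% lower. In males they were 2 higher and 3 lower, Corin not passing, where 15.5% of all genes passed, 7.71% higher and 7.77% lower. The 6 LCHADD and 6 WT libraries did not overlap for 5 of the 9 members (Ostn, Pam, Furin, Npr1 and Npr2), against 19.7% of all tested genes, 9.82% higher and 9.91% lower in LCHADD. As these values chose the members, nothing is read from the counts. The members' median log2 difference was 0.03 in the mean of both sexes, against −0.00193 over all tested genes.

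**Figure D2:**
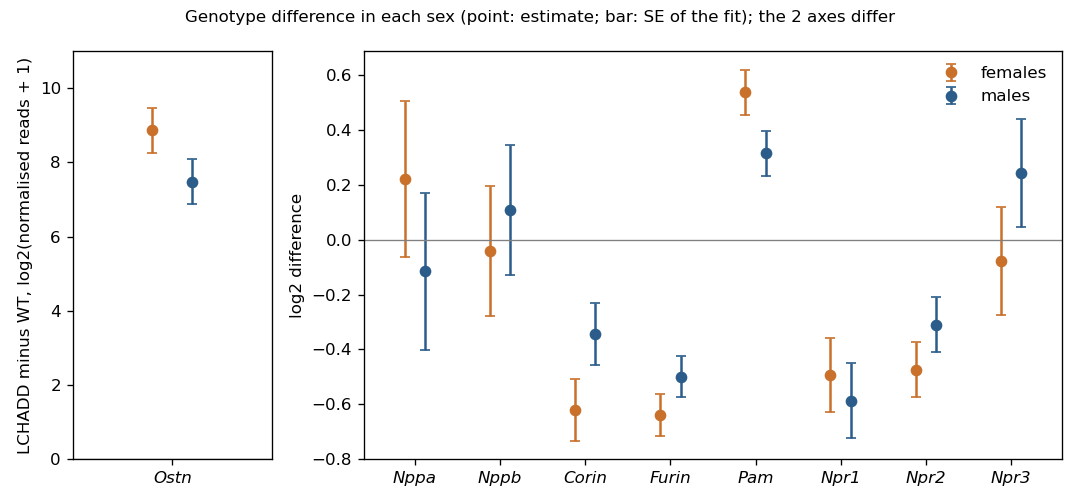
Log2 differences, LCHADD minus WT, of 9 members in females and males (points, estimates of the fit; bars, SE), with Ostn on its own axis from 0 because its values, 8.86 and 7.47, are far above the others. Corin, Furin, Npr1 and Npr2 lie below 0 and Pam above 0 in both sexes, while the bars of Nppa in females and males and of Nppb in both sexes cross 0.

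Whether the genotype difference depended on sex, and whether the sexes differed, was not used in choosing the genes and was tested. The interaction, the female minus the male genotype difference, was passed by none of the 9 members with limma, by 0 of them with edgeR, and by 0.00721% of all tested genes (1 gene). It was 1.39 on the log2 scale for Ostn (SE 0.85, adjusted p = 0.627), 0.22 for Pam (SE 0.12, adjusted p = 0.561) and −0.28 for Corin (SE 0.16, adjusted p = 0.605). The adjusted p was 0.705 to 0.924 for the other 6. Ostn passed the filter only through the LCHADD libraries, and with 0 to 7 reads in each WT library its interaction and its sex difference both rest on WT values close to the added 1. Over all genes, 1363 had an unadjusted p under 0.05 for the interaction. With array quality weights Pam passed (0.34, adjusted p = 0.0424), as did 749 genes in all.

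In the mean of both genotypes, females against males, 0 of the 9 members passed and 4.37% of all tested genes did, 1.89% higher and 2.48% lower in females. Pam came nearest, higher in females by 0.20 on the log2 scale (SE 0.06, adjusted p = 0.068). Corin was higher in females by 0.27 (SE 0.08, adjusted p = 0.074) and Ostn by 1.01 (SE 0.43, adjusted p = 0.203). Npr3 was lower in females by 0.26, written as a difference of −0.26 (SE 0.14, adjusted p = 0.335). The adjusted p of the other 5 was 0.427 to 0.997. Other processing moved Pam and Corin across the threshold: with DESeq2 their adjusted p was 0.0258 and 0.0314, without LCHADD female 2 it was 0.048 and 0.00204, and they passed in 6 and 5 of 24 processing alternatives. Pam also passed without LCHADD female 3 (adjusted p = 0.00881), and Ostn passed in 1 of 24, with 5 added (adjusted p = 0.0493). Over all genes, 2699 had an unadjusted p under 0.05 in females against males.

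Comparisons of the sexes within each genotype were added after the values had been seen. Within LCHADD, Pam was 1.25-fold higher in females (log2 difference 0.31, SE 0.08, limma adjusted p = 0.0402) and passed, as did 5.77% of all genes. Ostn was 3.48-fold higher in LCHADD females, without overlap, but did not pass (log2 difference 1.70, SE 0.60, adjusted p = 0.117). The SE of Ostn came from the fit of all groups and was the same within WT, where each library held 0 to 7 Ostn reads. Ostn passed the filter only through the LCHADD libraries. Its test within LCHADD therefore rests in part on the spread of WT values close to the added 1. Within WT, where 0.245% of all genes passed, Corin was 1.32-fold higher in females, again without overlap, and did not pass (log2 difference 0.41, SE 0.11, adjusted p = 0.301). Furin also did not overlap between WT females and males (log2 difference 0.15, SE 0.08, adjusted p = 0.701).

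Around the members, 92 other genes of the pathway were listed, of which 79 were tested; in the mean of both sexes 13 rose and 29 fell. Of all tested genes 20.3% rose and 20.6% fell. The lists below were chosen with earlier results of these data known, so their counts are a description and nothing is read from them. Of 15 tested guanylyl cyclase and cyclic GMP genes, 0 rose, 8 fell and 7 did not pass, with a median log2 difference of −0.33. The list also holds the nitric oxide synthases and the soluble cyclase, a source of cyclic GMP apart from the peptide receptors, and 4 of the 8 that fell (Gucy1a1, Gucy1b1, Nos2 and Nos3) belong to that branch. Rgs2, a regulator that protein kinase G switches on to damp vasoconstrictor signals, fell in females from 709.5 ± 89.3 to 219 ± 79.8 normalised reads, and in males from 381 ± 35.1 to 216 ± 22.6 (SD, n = 3; log2 difference of the mean −1.28, SE 0.14, limma adjusted p = 3.53e-06). Nos2, an inducible nitric oxide synthase, fell by 0.85 on the log2 scale (SE 0.12, adjusted p = 3.54e-05). Gucy1b1, a subunit of the soluble guanylyl cyclase that nitric oxide activates, fell by 0.38 (SE 0.09, adjusted p = 0.0038), and Pln, phospholamban, fell by 0.47 (SE 0.10, adjusted p = 0.00198). Tsc2, tuberin, and Ppp1r12a, a targeting subunit of myosin phosphatase, did not pass (log2 differences 0.07 and 0.11, adjusted p = 0.278 and 0.253).

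Of 17 phosphodiesterases and exporters of cyclic GMP or cyclic AMP, 4 rose, 7 fell and 6 did not pass, and the median was 0.01. Of these, Pde4a, Pde4b and Pde4d, which fell, and Pde8a, which rose, act on cyclic AMP rather than cyclic GMP. Pde9a and Pde5a also fell (log2 differences −0.87, SE 0.18, and −0.56, SE 0.14, adjusted p = 0.00117 and 0.00592). Pde3b rose (log2 difference 0.56, SE 0.10, adjusted p = 4.92e-04). Pde9a, Pde5a and Pde3b were named after their values were seen. Pde1c, a calcium-activated phosphodiesterase of heart muscle, rose from 934 ± 60.9 to 1666 ± 173 normalised reads (SD, n = 6; log2 difference 0.83, SE 0.07, adjusted p = 4.31e-07). Abcc4, an exporter of cyclic nucleotides, rose from 286 ± 34.0 to 622 ± 227 (log2 difference 1.06, SE 0.15, adjusted p = 3.93e-05). Pde2a, which cyclic GMP stimulates, fell from 28.8 ± 5.50 to 3.88 ± 3.50 (log2 difference −2.84, SE 0.39, adjusted p = 3.77e-05). Pde2a passed the filter only through the WT libraries. Its LCHADD libraries held 1 to 10 reads, so the size of the difference rests on values close to the added 1. Pde3a, which cyclic GMP inhibits, fell by 0.43 on the log2 scale (SE 0.06, adjusted p = 7.59e-05), and Pde7a and Abcc5 did not pass (log2 differences 0.20 and 0.01, adjusted p = 0.101 and 0.952).

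Beside Npr3, peptidases also remove natriuretic peptides. Of 6 tested genes 1 rose, 4 fell and 1 did not pass, with a median of −0.46. Mme, neprilysin, fell from 210 ± 40.0 to 122 ± 32.1 normalised reads (SD, n = 6; log2 difference −0.80, SE 0.15, adjusted p = 5.04e-04). Ece1, endothelin-converting enzyme, fell by 0.47 on the log2 scale (SE 0.05, adjusted p = 2.05e-06) and Anpep, aminopeptidase N, by 0.44 (SE 0.08, adjusted p = 3.9e-04), while Ece2 rose by 1.06 (SE 0.15, adjusted p = 6.35e-05). Ide, insulin-degrading enzyme, did not pass (log2 difference −0.08, SE 0.13, adjusted p = 0.652).

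Factors that act on the Nppa and Nppb promoters were measured as a list of 19 genes, of which 0 rose, 5 fell and 14 did not pass, with a median of −0.15. In males 1 rose, 3 fell and 15 did not pass, and the 1 that rose was Tbx20 (log2 difference 0.31, SE 0.09, adjusted p = 0.0372), named after its values were seen. Of all tested genes 7.71% rose and 7.77% fell in males. Tbx5 fell from 539 ± 35.1 to 301 ± 42.5 normalised reads (SD, n = 6; log2 difference −0.85, SE 0.09, adjusted p = 2.16e-06). Hey2, a transcriptional repressor of the ventricle, fell by 0.93 on the log2 scale (SE 0.14, adjusted p = 7.95e-05), Myocd, myocardin, by 0.56 (SE 0.07, adjusted p = 2.72e-05), and Gata6 by 0.30 (SE 0.08, adjusted p = 0.00684). Tead1 and Mef2a did not pass (log2 differences −0.11 and −0.02, adjusted p = 0.109 and 0.86). Gata4 and Nkx2-5, named after their values were seen because their motif letters are shown above, did not pass either (0.00 and 0.02, adjusted p = 0.969 and 0.856). Of the coding genes around the Nppa and Nppb pair, differences were small in those given here: Plod1, a collagen lysyl hydroxylase, fell by 0.19 on the log2 scale (SE 0.07, adjusted p = 0.033), and 2510039O18Rik and Clcn6 did not pass (−0.08 and −0.08, adjusted p = 0.363 and 0.469).

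Other transcripts that are often read together with Nppa and Nppb as signs of wall stress or a fetal program were measured as a list. Of 14 tested, 7 rose, 3 fell and 4 did not pass, with a median of 0.38 against −0.00193 over all tested genes. In males 4 rose, 2 fell and 8 did not pass, where 7.71% of all genes rose and 7.77% fell. Acta1, skeletal alpha-actin, rose in females from 1736 ± 303 to 13100 ± 456 normalised reads, and in males from 4886 ± 1043 to 7707 ± 2370 (SD, n = 3; log2 difference of the mean 1.78, SE 0.14, adjusted p = 2.28e-07). Gdf15, a stress cytokine, rose from 14.0 ± 8.51 to 280 ± 180 (SD, n = 6; log2 difference 4.23, SE 0.37, adjusted p = 5.74e-07). Ankrd1, a stretch-sensing protein of the sarcomere, and Myh7, the slow myosin, were named after their values were seen and rose by 1.55 (SE 0.17, adjusted p = 4.84e-06) and 0.42 (SE 0.15, adjusted p = 0.0378) on the log2 scale. Clu, clusterin, fell by 1.38 (SE 0.09, adjusted p = 1.75e-08) and Mybpc2, a fast muscle myosin-binding protein, by 1.84 (SE 0.15, adjusted p = 1.99e-07). Rcan1, an inhibitor of calcineurin, and Myh7b did not pass (0.31 and −0.26, adjusted p = 0.0636 and 0.0654).

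Of 9 atrial markers tested, 2 rose, 2 fell and 5 did not pass, where 20.3% of all tested genes rose and 20.6% fell. The sum of all 13 was 1987 to 2234 normalised reads in WT and 1091 to 1783 in LCHADD. Bmp10, a growth factor of the atrium, rose from between 1.71 and 5.98 to between 38.3 and 101 normalised reads (log2 difference 4.10, SE 0.27, adjusted p = 2.9e-08). Bmp10 passed the filter only through the LCHADD libraries. Its WT libraries held 2 to 6 reads, so the difference and its p rest on values close to the added 1. Dkk3, a secreted WNT regulator, rose by 0.64 (SE 0.18, adjusted p = 0.0106). Kcnj3, a channel of the acetylcholine-activated potassium current, fell by 1.21 (SE 0.21, adjusted p = 2.58e-04). Nppa, itself best known from the atrium, overlapped between the genotypes, as given above.

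**Figure D3:**
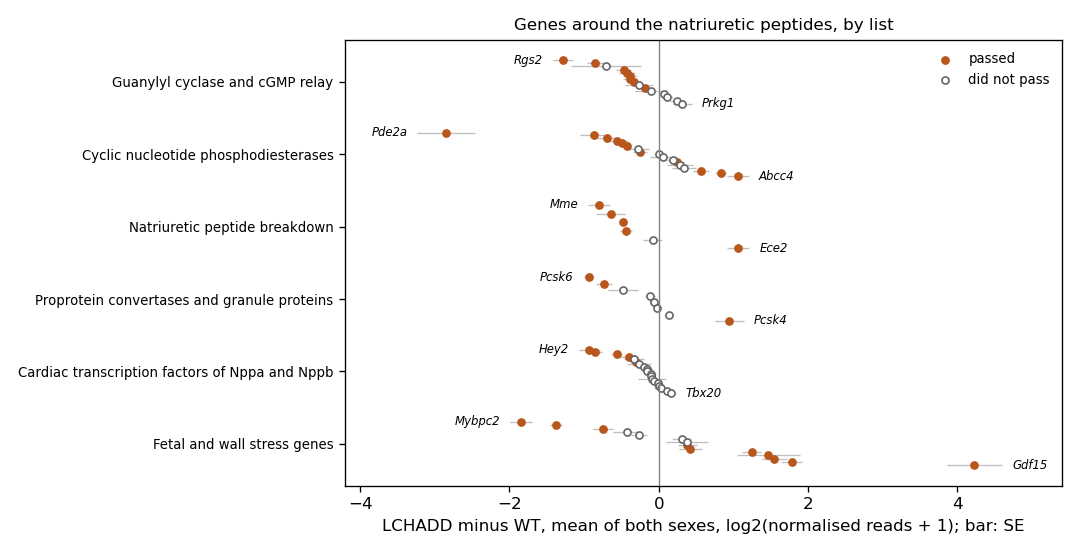
Log2 differences, LCHADD minus WT in the mean of both sexes, of the 79 tested genes in 6 lists around the natriuretic peptides (points, estimates; bars, SE; filled, passed at an adjusted p under 0.05; the lowest and the highest gene of each list are named). The guanylyl cyclase and cyclic GMP list and the transcription factors have 0 genes that rose in this mean, and Gdf15 at 4.23 and Pde2a at −2.84 are the extremes. Pde2a had 1 to 10 reads in each LCHADD library.

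The genes whose pattern was most like that of the peptide genes were ranked by Pearson's r of log2(normalised reads + 1) over the 12 libraries, among 10258 genes with a mean of at least 50. The points share their libraries and the genotype difference. Each gene named was picked for 1 of the 3 highest r, and the 6 LCHADD libraries are part of the 12 used in picking. For these reasons r is a description. For Ostn the nearest were Slc7a11, a cystine transporter (r = 0.994), Vmn2r3, annotated as a vomeronasal receptor (0.990), and Asns, asparagine synthetase (0.988). Slc7a11 and Vmn2r3 reached the mean of 50 only through LCHADD, with WT means of 0.764 and 0.348 normalised reads. Over the 6 LCHADD libraries alone, r with Ostn was 0.852, 0.882 and 0.951. For Nppb they were Zmat3 (0.909), Rpl7l1 (0.903) and Serinc1 (0.893), and over the LCHADD libraries r was 0.988, 0.949 and 0.900. For Nppa they were Cdk13 (0.837), Sap30l (0.830) and Rpia (0.812), with 0.957, 0.775 and 0.953 over the LCHADD libraries.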

How the data were processed

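Total RNA of fresh mouse ventricle was extracted with an RNeasy Fibrous Tissue Mini kit and sequenced, per the labels. The deposited signal values are read counts divided by 1 size factor per library: dividing by a library's smallest step gave whole numbers (tolerance 0.01) for 100.0% of values, and so the whole reads. The authors used build GRCm39, bcl2fastq and DESeq2, per the submitters' processing notes. How reads were aligned and counted, with which annotation and strand setting, is not given in the sources used here. Reads of overlapping genes therefore cannot be assigned with certainty.

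Of 51912 identifiers, 51633 were matched to symbols in GENCODE vM21 (GRCm38), which also gave exon lengths and gene order. Promoters came from RefSeq on GRCm38.p6. Values were tested as log2(value + 1) with limma 3.58.1 (lmFit, eBayes with trend) in R 4.3.3, in 1 fit of 4 group means, for the 13865 genes that reached 10 in 3 or more of 12 libraries. Benjamini-Hochberg adjustment ran over all tested genes, and limma's adjusted p is meant where no tool is named. The method was tested on simulated data. The alternatives were other added values and filters, TMM and other scalings, edgeR 4.0.16 and DESeq2 1.42.0 on the recovered reads, robust and weighted fits, a replicate block and libraries left out. The 10 members, the 6 pathway lists and the 9 marker lists (atrial, ventricular, skeletal, bone, endocardial, endothelial, fibroblast, mural, erythroid) were chosen with earlier results of these data known. Named were all members, up to 4 genes per list with the smallest adjusted p, up to 2 abundant ones that did not pass, the 3 genes most like each peptide, and neighbouring genes, of which 1 is not reported here. Marker genes are named in part.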

Additional observations from a re-analysis of the deposited data

Results flagged for a closer look

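Acta1, skeletal alpha-actin, had a genotype difference that was larger in females than in males. The interaction was 2.30 on the log2 scale (SE 0.29, limma adjusted p = 0.011), and Acta1 was the 1 gene of 13865 that passed this test. Acta1 rose by 2.93 (SE 0.20) in females and by 0.63 (SE 0.20) in males on the log2 scale. In WT it had 1736 ± 303 normalised reads in females and 4886 ± 1043 in males, and in LCHADD 13100 ± 456 and 7707 ± 2370 (SD, n = 3). The interaction of Acta1 was 2.02 to 2.48 over 24 alternatives and passed in 19 of them, with adjusted p from 3.47e-12 to 0.106. It did not pass with robust eBayes (adjusted p = 0.106), where 1 other gene did. It also did not pass without WT female 2 (0.0503), WT female 3 (0.0645), WT male 2 (0.0899) or LCHADD female 1 (0.0607), each an adjusted p, and 0 genes passed in those 4.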

How the results depend on the processing

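Under all 24 alternatives Ostn and Pam stayed higher, and Npr1, Npr2, Corin and Furin stayed lower, in LCHADD. Nppa, Nppb and Npr3 changed sign in some: on the log2 scale Nppb ran from −0.47 to 0.31 in females, Nppa from −0.36 to 0.28 in males and Npr3 from −0.35 to 0.15 in females. The limits are the 3 libraries per group, counting of unknown strand, and WT Ostn counts too low for a firm fold.

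Genes that passed numbered 1 for the interaction and 2 with the filter at 50, TMM scaling or edgeR, 101 with DESeq2, 749 with array quality weights, 9 without WT female 3 and LCHADD female 2, and 0 to 186 with a library left out: 186 without LCHADD female 3, 69 without LCHADD male 3, 8 without LCHADD female 2, 2 without WT male 1, and 0 without WT female 2, WT female 3, WT male 2 or LCHADD female 1. For males 2146 passed, 3601 with array quality weights, 3317 without the pair, and 1317 to 3293 with a library left out: 1317 without WT male 3 or LCHADD male 1, 1332 without WT male 1, and 3293 without LCHADD female 2. For females against males 606 passed, 2310 with array quality weights, 34 within WT, and 282 to 1332 with a library left out: 1332 without LCHADD female 3, and 282 to 391 without WT female 2 or 3, any WT male, LCHADD female 1 or LCHADD male 2. Of the pathway genes 24 passed in males, and 15 to 29 with a library left out, 15 without WT male 3. The causes of these shifts were not tested. Scaling by nuclear reads changed the female split from 2314 higher and 2378 lower to 2884 and 1953, and that of females against males from 262 and 344 to 351 and 230.

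The replicate numbers of the labels did not pair the libraries: over 18 pairs with the same number, the correlation of deviations ran from −0.106 to 0.0491. With the replicate number as a block, 5482 genes passed in the mean of both sexes (5661 without), 4502 in females, 2016 in males, 1 for the interaction and 437 for the sexes, and 42 pathway genes passed in the mean of both sexes. No call on a member's interaction or sex difference changed under the block.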
